A study of Mus musculus with 6 samples.

Results

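The matrix proteases and their inhibitors of the midface were followed through 40 genes. They are the entries of the gene table whose symbol is Adamts, Adamtsl, Mmp or Timp followed by a number and whose counts over the 6 libraries sum above 0. They make up 40 of the 55401 genes in the table, or 40 of the 51 entries with such a symbol: 18 Adamts, 5 Adamtsl, 13 Mmp and 4 Timp genes. The symbol rule used no difference between genotypes. RNA came from dissected frontonasal and maxillary prominences, swellings that later build the nose and upper jaw, taken from E10.5 mouse embryos. The comparison asks what changes in this tissue once the transcription factors TFAP2A and TFAP2B are removed from neural crest.

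The 3 mutants, Tfap2Δ/NCKO, carried 1 null and 1 floxed allele of Tfap2a, the same for Tfap2b, and the transgene Wnt1:CRE. The 3 controls were siblings that lacked CRE and could hold any mix of the Tfap2a and Tfap2b alleles, so some controls may have had a reduced dose of either gene. Dams were homozygous for both floxed alleles, hence every embryo of both groups inherited at least a floxed copy of each gene, and the stock was of mixed background. Wnt1:CRE acts in premigratory neural crest, so surface ectoderm, endothelium and blood of the mutants kept a floxed copy of each gene beside the null one. Every mutant and no control carried the transgene, so its own effects and those of the deletions cannot be told apart. Titles number the embryos within a group but do not name litters. Each p-value below weighs the difference between the groups against the spread within them, as modelled from these 6 libraries.

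Metalloproteases of the ADAMTS and MMP families are made as inactive precursors and cut collagens, proteoglycans and other matrix proteins with a zinc ion held in the active site. ADAMTS proteases are secreted and bind the matrix through thrombospondin repeats, ADAMTS-like proteins keep those repeats but have no protease domain, and several MMPs stay fixed to the plasma membrane. TIMPs are small secreted proteins that block the active site, and TIMP3 differs from the others in staying bound to the matrix and in blocking several ADAMTS proteases. In embryonic faces, this system is known for clearing versican-rich provisional matrix and for processing fibrillar collagen as crest-derived mesenchyme grows.

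The stretch of coding sequence that binds the zinc ion separates proteases from the rest of the members, and it is shown for that reason. A search of GENCODE M21 transcripts (GRCm38, the mm10 assembly) for a run of 11 codons with the 3 zinc-binding histidines found it in 74 of 21901 protein-coding genes, 0.338%. The search also required a glutamate codon after the first histidine and a glycine or asparagine codon at the eighth place. Among the members it was present in 17 of 18 Adamts genes and 13 of 13 Mmp genes, and in 0 of 5 Adamtsl and 0 of 4 Timp genes. In Adamts8 no match was found with the letters searched. The search thus allowed only 2 forms, which differ in the eighth codon, printed in capitals, and genes with another residue there were not counted. The common form has glycine there and the second form asparagine, and 5 genes of the whole set held the second form. All 5 are Adamts genes of the proteoglycan-cleaving group:
Adamts1: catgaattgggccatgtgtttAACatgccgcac
Adamts4: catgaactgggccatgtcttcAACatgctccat
Adamts9: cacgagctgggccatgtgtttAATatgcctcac
Adamts15: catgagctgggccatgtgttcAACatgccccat
Adamts20: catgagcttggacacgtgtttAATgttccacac

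The common form was found in 69 genes. It is given for the procollagen proteases Adamts2 and Adamts3, for Adamts5, the proteoglycan-cleaving gene that differs from the 5 above, and for the most abundant members of the gelatinase and membrane-type groups:
Adamts2: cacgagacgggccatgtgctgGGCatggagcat
Adamts3: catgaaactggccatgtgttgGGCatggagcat
Adamts5: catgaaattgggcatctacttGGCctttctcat
Mmp2: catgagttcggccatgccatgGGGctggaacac
Mmp14: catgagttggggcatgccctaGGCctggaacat

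In the genome the run of Mmp2 lies within exon 8 (chr8:92839279-92839311, plus strand) and that of Mmp14 within exon 5 (chr14:54437627-54437659, plus strand). In all 8 Adamts genes printed here it is split by an intron. It joins exons 3 and 4 in Adamts4 (chr1:171253210-171253915, plus strand), exons 7 and 8 in Adamts2 (chr11:50775403-50776134, plus strand) and exons 2 and 3 in Adamts5 (chr16:85878015-85887826, minus strand).

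The libraries held 68119668 to 77555252 counts each, so 3 counts stood for 0.0384 to 0.0444 CPM (counts per 1000000 of the scaled library size). Limits drawn from them cover counting error only. Tfap2a stood at 30.4, 33.1 and 35.1 CPM in controls 1 to 3 and at 31.5, 28.6 and 28.6 CPM in mutants 1 to 3, and Tfap2b at 90.1, 88.7 and 97.3 CPM against 84.2, 75.6 and 77.7 CPM. Neither passed the test (log2 fold change -0.15 and -0.22, edgeR adjusted p = 0.684 and 0.260), and gene-level counts do not show whether a transcript carries the deleted exons. Summed Y-linked transcripts were at 148 CPM in control 2 and at 149 to 156 CPM in the mutants, but at 0.0802 and 0.0265 CPM in controls 1 and 3. Sex therefore differed between the groups. Where the log2 fold change of a named member moved by over 1.5 times or changed sign once this was accounted for, it is followed by its value with Y-linked expression as a covariate and by that in the 4 libraries with Y-linked transcripts only.

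The midface at this stage transcribed a few members strongly and most of them weakly. Compared per kilobase of summed exons, Mmp2 (gelatinase A, which cuts denatured collagen and basement membrane) led with a mean of 32.7 CPM per kilobase and a range of 27.5 to 36.2 over the 6 libraries. Timp2 at 16.2 and Mmp14 at 15.1 CPM per kilobase came next, and their ranges overlapped. These products act together, since MMP14 on the cell surface activates the MMP2 precursor through bound TIMP2. Mmp15, another membrane-type protease, followed at 11.1 and Mmp11, stromelysin-3, at 8.98 CPM per kilobase. Timp3, Timp1, Adamts10, Adamts7 and Adamts1 lay between 6.60 and 4.51 CPM per kilobase, each overlapping its neighbour. Within the order, ranges of neighbours failed to meet at only 3 places: after Mmp2, after Mmp14 and after Adamts1. Levels below Adamts1 ran from 2.64 CPM per kilobase for Adamts15 to 0.00369 for Mmp13, and no neighbours among these 30 genes were separated by their ranges.

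**Figure D1:**
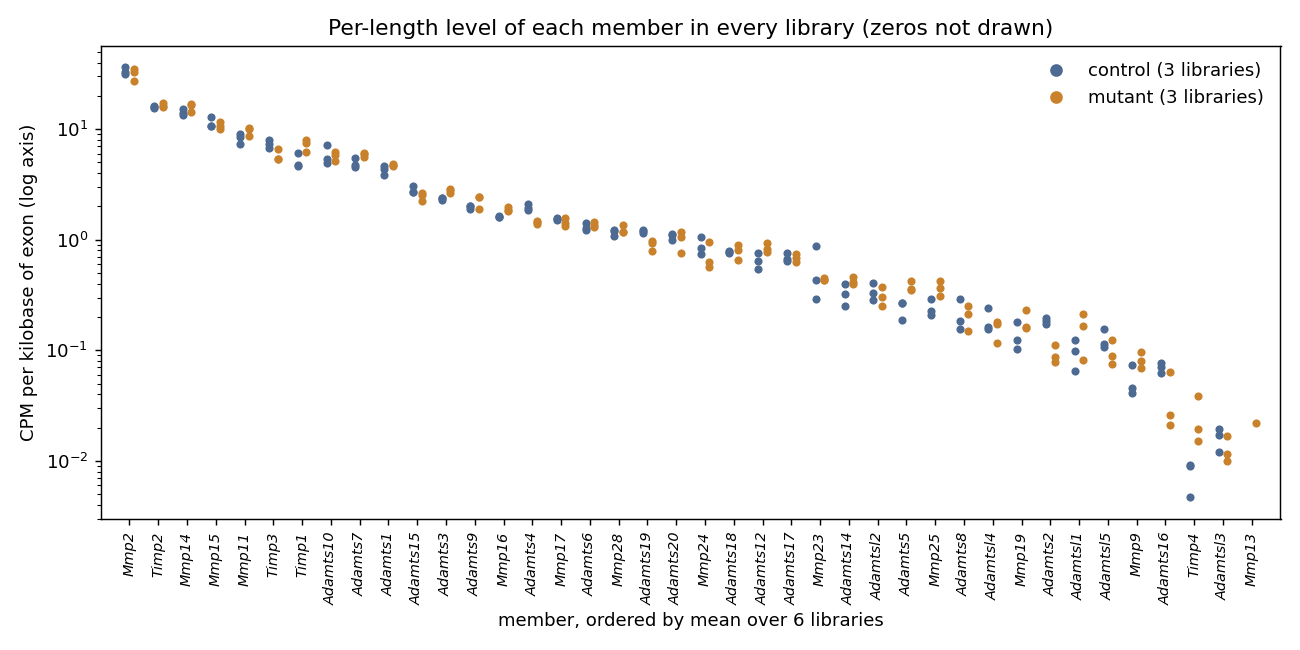
Level of each of the 40 members in CPM per kilobase of summed exons, on a log axis, with a point for each library. Mmp2 ranks first at a mean of 32.7 CPM per kilobase, apart from Timp2 at 16.2 and Mmp14 at 15.1, while Mmp13 was at 0 in 5 of 6 libraries and cannot be drawn there.

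Classical collagenases and most stromelysins were not detected. Counts were 0 in every library for Mmp1a, Mmp1b and Mmp8, grouped here as collagenases. They were also 0 for Mmp3, Mmp7, Mmp10, Mmp12, Mmp20, Mmp21 and Mmp27, and for Adamts13, the protease of von Willebrand factor. A count of 0 allows up to 0.0384 to 0.0444 CPM in a library. Mmp13, collagenase-3, had 4 counts in mutant 2 and 0 in the other 5 libraries. Timp4 had 4, 2 and 4 counts in the controls and 16, 6 and 9 in the mutants, and Adamtsl3 had 7, 11 and 10 against 9, 6 and 6. These 3 genes were too low to be tested.

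Of the 37 members tested, 19 had a higher and 18 a lower fitted level in mutants. Their median log2 fold change was 0.03, against 0.00 over the 19612 genes tested, of which 9866 were higher and 9746 lower. A gene was called where its adjusted p in edgeR was below 0.05 and its absolute log2 fold change above 0.32. By this rule 0 of 37 members were called, against 64 genes or 0.326% of all genes tested. At an unadjusted p below 0.05 in edgeR, 11 members (29.7%) stood out, 7 higher and 4 lower, against 7.95% of all genes, 4.30% higher and 3.65% lower. DESeq2 on the same counts called 4 members (10.8%), all lower: Adamts2, Adamts4, Adamts19 and Timp3. In bulk tissue, fewer cells of a type and less RNA per cell cannot be told apart. The DESeq2 background was 1.44% of all genes, of which 0.811% were lower.

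Control and mutant libraries did not overlap for 13 of 37 members (35.1%), 8 higher and 5 lower. The share over all genes tested was 13.4%, 7.15% higher and 6.24% lower. By family, 9 Adamts genes were higher and 9 lower with a median log2 fold change of 0.01, and 7 Mmp genes were higher and 5 lower with a median of 0.11. Of the Adamtsl genes 1 was higher and 3 lower, and of the Timp genes 2 were higher and 1 lower. Thus members whose libraries separated lay on both sides within the Adamts and Timp families, whereas both such Mmp genes were higher.

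**Figure D2:**
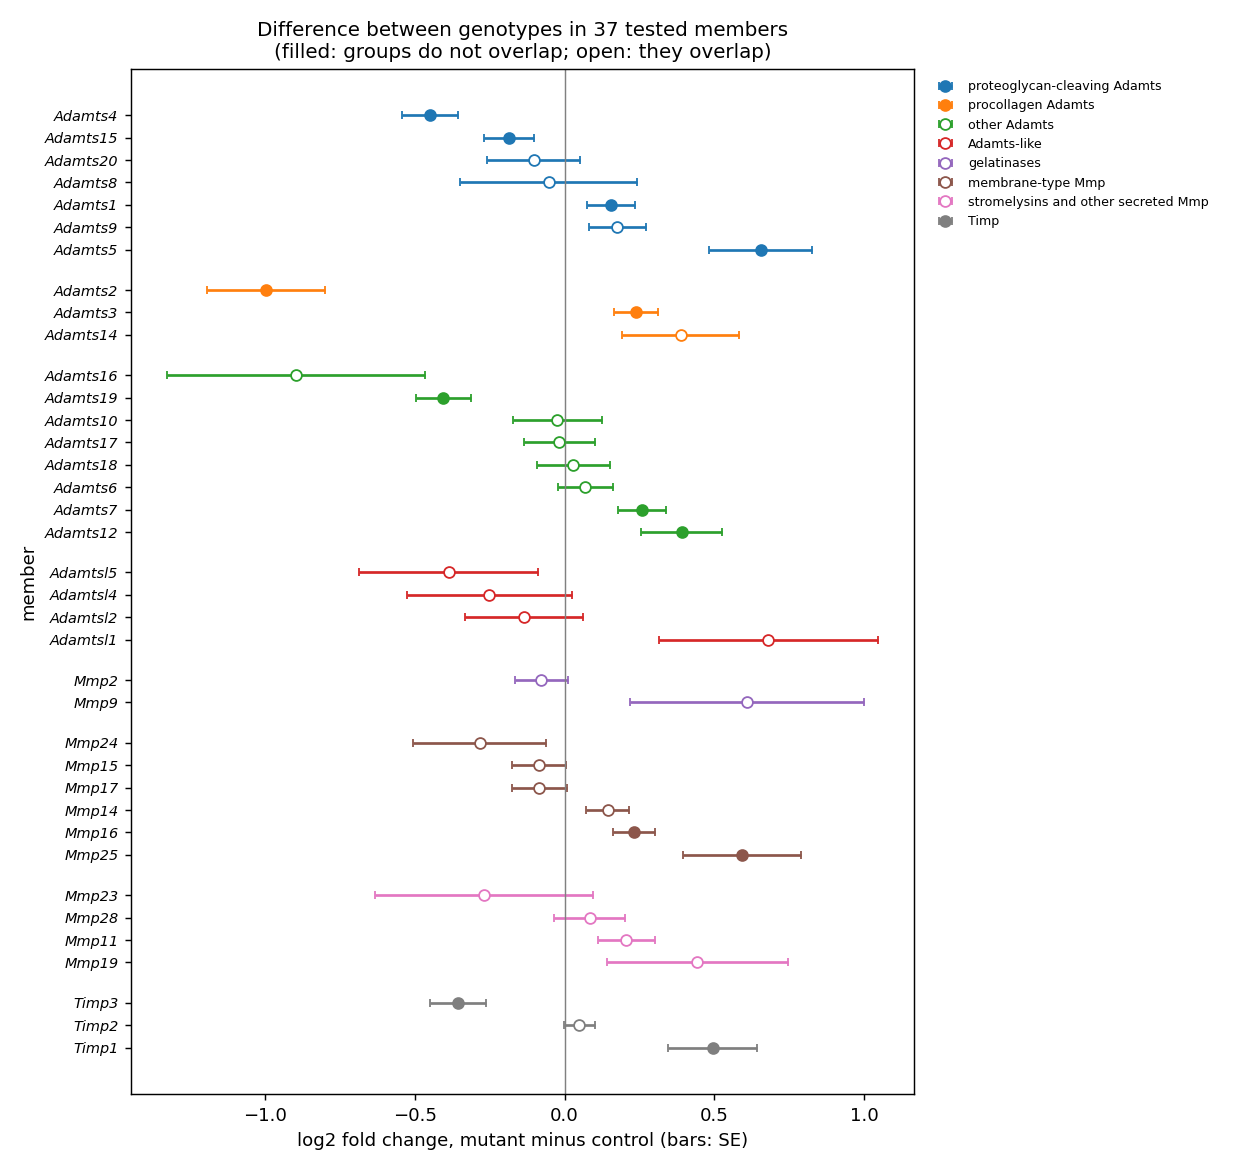
Log2 fold change, mutant minus control, of the 37 tested members from edgeR with its SE, ordered within each role. Filled points mark the 13 members whose control and mutant libraries do not overlap, 5 to the left of 0 and 8 to the right, and the most negative is Adamts2 at -0.997.

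The procollagen proteases lay on both sides of 0. ADAMTS2, ADAMTS3 and ADAMTS14 remove the amino-terminal propeptide from fibrillar procollagens, and ADAMTS3 also activates the lymphatic growth factor VEGFC. Adamts2 (ENSMUSG00000036545.9, chr11:50602084-50807573, plus strand) was at 1.82, 1.61 and 1.73 CPM in controls 1 to 3 and at 0.804, 0.725 and 1.05 CPM in mutants 1 to 3. Every mutant was below every control, on 117 to 136 counts per control library and 49 to 82 per mutant library. The means were 1.72 ± 0.104 and 0.860 ± 0.169 CPM (SD, n = 3 each), a log2 fold change of -0.997 with an SE of 0.20. It was called by DESeq2 (adjusted p = 0.0191) and not by edgeR (adjusted p = 0.104), and over all 14 alternatives the adjusted p ranged from 0.0191 to 0.63.

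Adamts3 (ENSMUSG00000043635.12, chr5:89677087-89883334, minus strand) was at 12.85, 12.50 and 13.02 CPM in controls and 15.4, 15.5 and 14.3 CPM in mutants. Here every mutant lay above every control, by a log2 fold change of 0.24 with an SE of 0.07 (edgeR adjusted p = 0.331). Adamts14 was at 1.68, 1.29 and 2.08 CPM in controls and 2.17, 2.38 and 2.07 CPM in mutants, with mutant 3 just inside the control range. For Adamts14 the log2 fold change of 0.39 was 0.77 with the covariate and 0.75 in the Y-linked libraries. Per kilobase of exons Adamts3 averaged 2.57, Adamts14 0.375 and Adamts2 0.138 CPM. Summed over the 3 genes, the level was 15.4 to 16.8 CPM in controls and 17.4 to 18.7 CPM in mutants, since Adamts3 makes up most of it.

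The upstream sequences of Adamts2 and Adamts3, which lay on opposite sides of 0, are printed because TFAP2 factors bind DNA at GC-rich palindromes. RefSeq promoters (GRCm38.p6, 250 bases before to 50 after the start) were available for 25 of the 40 members. The letters GCCNNNGGC, which read the same on both strands, were searched as the AP-2 motif, and overlaps with other motifs were not examined. They occurred in 8 of 26 member promoters (30.8%) and in 16.6% of 32851 promoters in the table. Member promoters were also richer in GC, with a median of 66% against 52.7%. Upstream of Adamts3 (chr5:89883335-89883584, minus strand) the letters start 129 bases before the start site and stand in capitals, and upstream of Adamts2 (chr11:50601835-50602084, plus strand) they are not in the window:
Adamts2: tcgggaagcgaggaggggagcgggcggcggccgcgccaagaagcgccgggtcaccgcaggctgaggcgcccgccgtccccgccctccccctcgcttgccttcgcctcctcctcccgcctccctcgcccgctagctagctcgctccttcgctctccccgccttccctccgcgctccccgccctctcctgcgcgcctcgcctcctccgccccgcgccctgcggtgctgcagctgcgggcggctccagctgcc
Adamts3: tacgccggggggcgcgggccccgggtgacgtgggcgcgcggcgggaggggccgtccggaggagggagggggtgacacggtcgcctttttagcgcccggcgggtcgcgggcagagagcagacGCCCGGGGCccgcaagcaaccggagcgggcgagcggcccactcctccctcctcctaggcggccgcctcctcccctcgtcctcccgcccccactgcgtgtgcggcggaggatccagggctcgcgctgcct

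The other promoters with a match were those of Adamts9, Adamts14, Adamtsl4, Adamtsl5, Mmp11, Mmp24 and Mmp25. Their log2 fold changes ran from -0.39 for Adamtsl5 to 0.59 for Mmp25, so genes with the letters were found on both sides of 0. A match is a description of the sequence and was not tested for binding.

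Proteoglycan-cleaving Adamts genes, whose products cut aggrecan and versican, numbered 7, of which 3 were higher and 4 lower. Adamts4 (aggrecanase-1, ENSMUSG00000006403.13, chr1:171250421-171260637, plus strand) was at 8.86, 10.2 and 9.30 CPM in controls and 6.93, 6.69 and 7.13 CPM in mutants. The mutants lay close together and all below the controls, with means of 9.45 ± 0.684 and 6.92 ± 0.219 CPM (SD, n = 3 each). The log2 fold change was -0.45 with an SE of 0.09. DESeq2 called it (adjusted p = 0.0079), edgeR did not (adjusted p = 0.118), and the 14 alternatives ranged from 0.0079 to 0.364.

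Adamts5 (aggrecanase-2, ENSMUSG00000022894.6, chr16:85856173-85901828, minus strand) had higher values in mutants. Its level was 2.02, 2.90 and 2.87 CPM in controls and 3.82, 3.88 and 4.57 CPM in mutants, so the lowest mutant exceeded the highest control. The means were 2.60 ± 0.503 and 4.09 ± 0.417 CPM (SD, n = 3 each), a log2 fold change of 0.65 with an SE of 0.17 that neither edgeR (adjusted p = 0.227) nor DESeq2 (adjusted p = 0.0675) called. It is the proteoglycan-cleaving gene whose zinc-binding run has the common form.

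The 3 most abundant genes of this group, also per kilobase of exons, were Adamts9, Adamts15 and Adamts1. Adamts9, a versican-cleaving protease, was at 30.6, 28.7 and 30.2 CPM in controls and 36.3, 28.5 and 36.4 CPM in mutants, with mutant 2 below all controls. Adamts15 was at 27.9, 28.0 and 31.4 CPM in controls and 27.5, 23.2 and 26.1 CPM in mutants, every mutant lower, by a log2 fold change of -0.19 with an SE of 0.08, or -0.12 without mutant 2. Adamts1 was at 20.2, 23.1 and 24.5 CPM against 25.1, 24.5 and 25.9 CPM, where control 3 at 24.52 and mutant 2 at 24.54 CPM almost met. Its log2 fold change was 0.15, or 0.0720 without control 1. Adamts8 and Adamts20 overlapped between genotypes. The 5 genes with the second form of the zinc-binding run thus held 2 higher and 3 lower values, and the summed level of the group was 101 to 109 CPM in controls and 98.4 to 110.2 CPM in mutants.

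**Figure D3:**
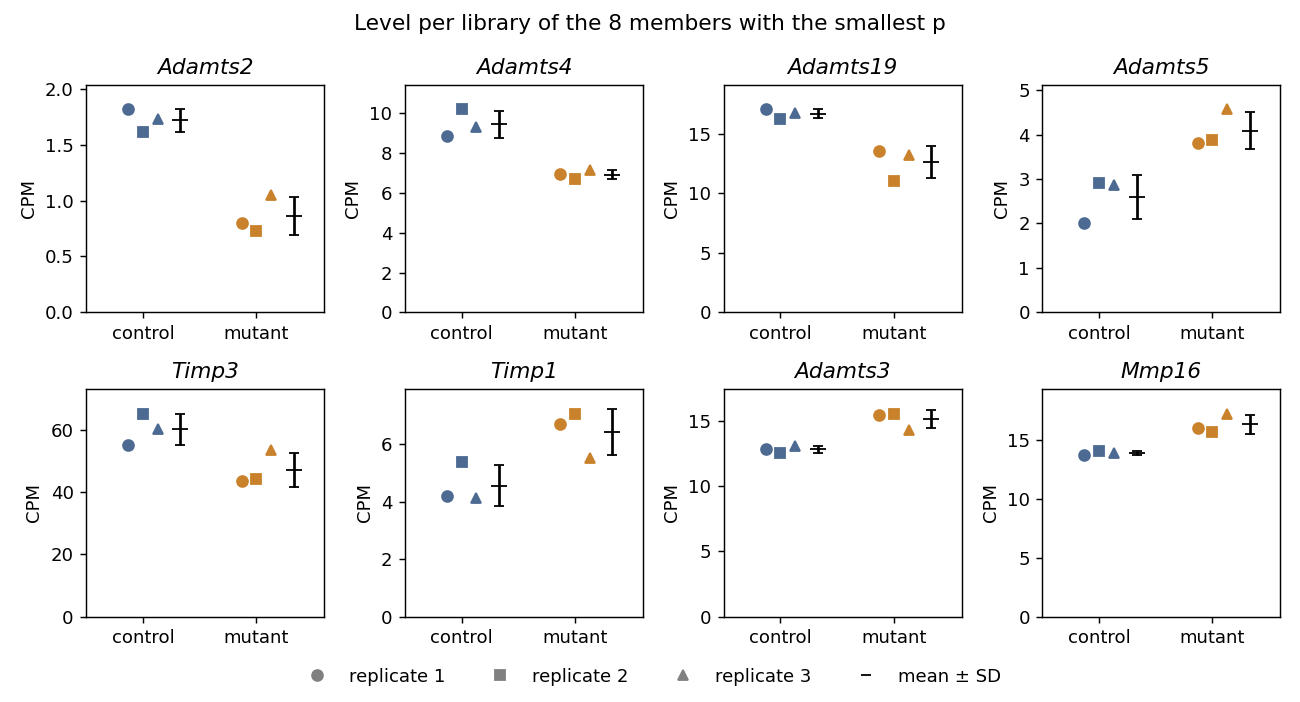
Level in CPM of the 8 members with the smallest p-values, a panel each with its own axis from 0, with a point for each of 3 control and 3 mutant libraries and a bar for the mean and SD of each group. In Adamts2, Adamts4, Adamts19 and Timp3 all mutants lie below all controls, and in Adamts5, Timp1, Adamts3 and Mmp16 all lie above.

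Other Adamts genes comprise proteases that act on fibrillin microfibrils or cartilage matrix and several with few known substrates. Of the 8 with counts, 4 were higher and 4 lower. Adamts19, for which few substrates are known, was at 17.0, 16.3 and 16.7 CPM in controls and 13.5, 11.03 and 13.2 CPM in mutants, all mutants lower. The means were 16.7 ± 0.392 and 12.6 ± 1.37 CPM (SD, n = 3 each), with a log2 fold change of -0.40 and an SE of 0.09. It was called by DESeq2 (adjusted p = 0.00942) but not by edgeR (adjusted p = 0.153), within a range of 0.00942 to 0.766 over the alternatives.

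Adamts10, which binds fibrillin-1, was the most abundant of them, also per kilobase. It was at 44.0, 40.7 and 59.7 CPM in controls and 42.6, 47.7 and 51.8 CPM in mutants, and the control range held all mutants. For Adamts10 the log2 fold change of -0.0238 was 0.22 with the covariate and 0.20 in the Y-linked libraries. Adamts7, a protease of cartilage oligomeric matrix protein, was at 29.9, 28.5 and 34.3 CPM in controls and 35.1, 37.2 and 38.6 CPM in mutants. All mutants were higher, by a log2 fold change of 0.26 with an SE of 0.08 (edgeR adjusted p = 0.340). Adamts12, its closest relative and named here after its values were seen, was also higher in every mutant, at 8.48 to 10.2 CPM against 5.90 to 8.23 CPM. Its log2 fold change was 0.39 with an SE of 0.14 (edgeR adjusted p = 0.447). For Adamts12 the value with Y-linked expression accounted for was not examined. Adamts7 shares 122 exon bases with Tbc1d2b on the opposite strand.

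Adamts-like genes were low, with summed levels of 5.22 to 5.65 CPM in controls and 4.11 to 7.12 CPM in mutants. Adamtsl2, a fibrillin-binding protein, was at 2.66, 2.26 and 3.27 CPM in controls and 2.02, 2.43 and 3.00 CPM in mutants. For Adamtsl2 the log2 fold change of -0.14 was 0.14 with the covariate and 0.12 in the Y-linked libraries. Adamtsl1 was at 1.58, 1.27 and 0.820 CPM against 1.05, 2.12 and 2.70 CPM. Adamtsl4, another microfibril-associated protein, was at 0.655 to 1.00 CPM in controls and 0.488 to 0.755 CPM in mutants, a log2 fold change of -0.25 that was -0.61 with the covariate and -0.63 in the Y-linked libraries. None of the 4 tested Adamts-like genes separated the genotypes.

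Membrane-type Mmp genes summed to 167 to 184 CPM in controls and 169 to 195 CPM in mutants. Mmp14 was at 80.8, 91.0 and 84.3 CPM in controls and 84.9, 99.97 and 98.0 CPM in mutants, with mutant 1 inside the control range. Its log2 fold change was 0.14 with an SE of 0.07, against 0.0508 with the covariate and 0.0355 in the Y-linked libraries. Mmp15 was at 57.5, 57.2 and 70.2 CPM against 54.3, 57.2 and 62.7 CPM, and only mutant 3 lay inside the control range. For Mmp15 the log2 fold change of -0.0861 was 0.0215 with the covariate and 0.00607 in the Y-linked libraries.

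Mmp16 (ENSMUSG00000028226.15, chr4:17852893-18119145, plus strand), another membrane-type protease, was at 13.79, 14.08 and 13.96 CPM in controls and 16.0, 15.8 and 17.3 CPM in mutants. All mutants were above the narrow control range, by a log2 fold change of 0.23 with an SE of 0.07 (edgeR adjusted p = 0.335). Mmp25, a membrane-anchored protease known from leukocytes and named here after its values were seen, was at 1.11, 1.21 and 1.53 CPM against 1.65, 1.92 and 2.24 CPM. Its log2 fold change was 0.59 with an SE of 0.20 (edgeR adjusted p = 0.400). For Mmp25 the value with Y-linked expression accounted for was not examined. Of the 6 membrane-type genes 3 were higher and 3 lower.

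The gelatinases differed widely in level, with means of 32.7 CPM per kilobase for Mmp2 and 0.0676 for Mmp9. Mmp2 was at 107, 122 and 110.3 CPM in controls and 92.9, 117 and 112 CPM in mutants, and its genotypes overlapped. For Mmp2 the log2 fold change of -0.0769 was -0.19 with the covariate and -0.20 in the Y-linked libraries. Mmp9, gelatinase B, rested on 11 to 19 counts per control library and 19 to 24 per mutant library, or 0.146 to 0.262 against 0.243 to 0.344 CPM. Its log2 fold change of 0.61 had an SE of 0.39 and was 0.14 with the covariate and 0.13 in the Y-linked libraries.

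Among the other secreted Mmp genes, Mmp11 was at 20.5, 25.3 and 23.7 CPM in controls and 24.1, 28.3 and 27.7 CPM in mutants. For Mmp11 the log2 fold change of 0.21 was 0.0784 with the covariate and 0.0631 in the Y-linked libraries. Mmp28, epilysin, was at 4.20 to 4.76 CPM against 4.54 to 5.28 CPM, a log2 fold change of 0.0845 that was 0.0510 with the covariate and 0.0358 in the Y-linked libraries. Mmp23 was at 0.681, 1.00 and 2.04 CPM in controls and 1.02, 1.02 and 1.05 CPM in mutants, so that control 3 alone set its negative log2 fold change of -0.27. Without control 3 it was 0.28, and it was 0.0358 with the covariate and 0.0204 in the Y-linked libraries. All 4 tested genes of this group overlapped between genotypes.

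The inhibitors lay on both sides of 0. Timp3 (ENSMUSG00000020044.13, chr10:86300372-86349506, plus strand) was at 55.3, 65.4 and 60.3 CPM in controls and 43.7, 44.2 and 53.5 CPM in mutants. All mutants lay below all controls, with mutant 3 nearest to them, and the means were 60.3 ± 5.04 and 47.1 ± 5.53 CPM (SD, n = 3 each). The log2 fold change was -0.36 with an SE of 0.09. DESeq2 called it (adjusted p = 0.0205) and edgeR did not (adjusted p = 0.228), with 0.0205 to 0.581 over the alternatives. Timp3 lies within Syn3, which runs on the opposite strand and shares 1733 exon bases with it.

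Timp1 (ENSMUSG00000001131.11, chrX:20870166-20874735, plus strand), a soluble inhibitor, was at 4.18, 5.37 and 4.12 CPM in controls and 6.69, 7.06 and 5.50 CPM in mutants. All mutants were higher, by a log2 fold change of 0.49 with an SE of 0.15 (edgeR adjusted p = 0.321). The gene is X-linked, and control 2, the control with Y-linked transcripts, was the highest control and close to mutant 3. With Y-linked expression as a covariate the log2 fold change was 0.26, and among the 4 libraries with Y-linked transcripts it was 0.24. Timp2 was at 62.4, 63.0 and 60.3 CPM in controls and 61.4, 67.5 and 63.2 CPM in mutants, a log2 fold change of 0.0497 that was 0.0244 with the covariate and 0.00910 in the Y-linked libraries. The summed level of the inhibitors was 122 to 134 CPM in controls and 112 to 122 CPM in mutants.

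**Figure D4:**
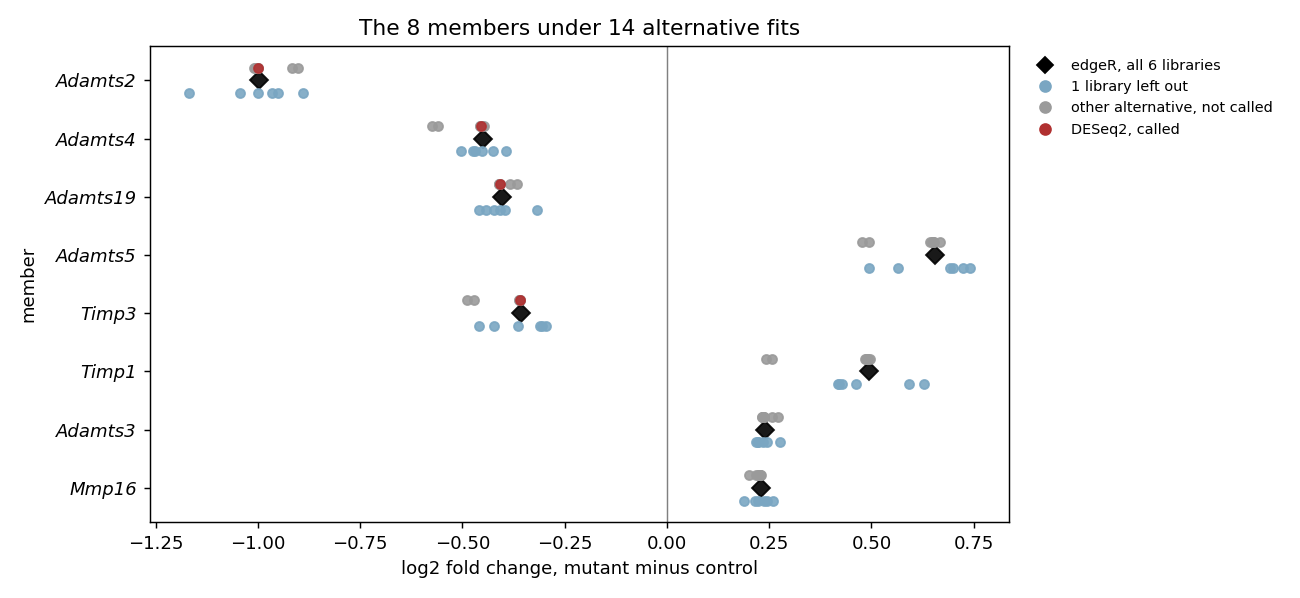
Log2 fold change, mutant minus control, of the 8 members with the smallest p-values in the fit of all 6 libraries (black diamonds), with 1 library left out (blue) and under the other alternatives (grey, red where DESeq2 called the gene). No member crosses 0, and Timp1 is at 0.49 in all libraries and at 0.26 and 0.24 in the 2 fits that account for Y-linked expression.

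Genes around these members in the same system gave 0 calls in edgeR as well. Of 41 further matrix proteases, activators and inhibitors, 23 were higher and 18 lower with a median log2 fold change of 0.04. Of 30 matrix substrates, 19 were higher and 11 lower with a median of 0.12. At an unadjusted p below 0.05 in edgeR, these were 9 of 41 and 10 of 30 genes, against 7.95% of all genes tested. DESeq2 called 1 of 41, Spock1, and 5 of 30, against 1.44% of all genes. Those 5 were Hapln1 and, named here after their values were seen, Col1a2 (edgeR log2 fold change -0.69), Col3a1 (0.46), Bgn (0.63) and Lum (0.46). The 5 smallest p-values belonged to Hapln1, a link protein that ties versican and aggrecan to hyaluronan (-0.59, adjusted p = 0.114 in edgeR), and to Lama1 (0.31), Spock1 (-0.84), Pcsk5 (-0.30) and Spock3 (0.69). Pcsk5 encodes a proprotein convertase, and the Spock genes encode testicans, matrix proteoglycans with inhibitor domains.

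Cell type markers differed between the genotypes as well. All 12 markers of cranial crest mesenchyme were lower in mutants, with a summed level of 1314 to 1329.8 CPM in controls and 1042 to 1092 CPM in mutants, and edgeR called 2 of them, Alx1 and Alx4. The Alx genes were of interest to the study in these samples, so they are no independent evidence of that direction. All 10 macrophage markers had a higher fitted level, with a sum of 27.1 to 37.4 against 45.5 to 67.6 CPM, and C1qb was called. Among them Cd68 was nearly level, at a log2 fold change of 0.016, and C1qa and Tyrobp also overlapped between genotypes. Of 10 mesoderm and muscle markers 8 were higher, at 28.4 to 36.3 against 44.7 to 49.9 CPM, with Meox2 and Tcf15 called. Endothelial markers were higher in 9 of 10, at 290.2 to 304 against 320.0 to 343 CPM, and ectodermal ones in 7 of 11, at 350.2 to 370.0 against 372 to 443 CPM. Neural and erythroid sums overlapped, and no marker was at 0 in all libraries. The part of these shifts in the values of Adamts2, Adamts4, Adamts19, Timp3, Adamts5 and the other members was not tested.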

How the data were processed

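Poly(A) RNA of 3 control and 3 mutant E10.5 prominence samples was read from a stranded kit. The authors mapped reads to mm10 with STAR and quantified genes with StringTie, and the deposited values are estimated counts from its prepDE script. All were whole, so none was rounded. The settings listed for StringTie hold no strand option, so reads of overlapping opposite-strand genes cannot be told apart. For the authors' tool versions, annotation release and prepDE read length: not given in the sources used here. The authors' fold changes and p-values in the same table, and a second table of kallisto and sleuth comparisons, were not used.

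Genes were filtered with filterByExpr, scaled with TMM and tested with the robust quasi-likelihood test of edgeR 4.0.16 (R 4.3.3) without covariates. P-values were adjusted (Benjamini-Hochberg) over 19612 genes, and the SE is the absolute log2 fold change divided by the square root of F. DESeq2 1.42.0 was an alternative, with other scalings, filters, counts divided by 2, each library left out, a replicate block and Y-linked expression. Calls used the study's limits for its first pipeline, an adjusted p of 0.05 and an absolute log2 fold change of 0.32. The study applied them to DESeq2, whose calls are given here as an alternative to those of edgeR. The study's further limit on the second pipeline was not applied. Named genes were the 3 most abundant of each role, the 8 with the smallest p-values and the 5 smallest p-values among other matrix genes. Members and lists were chosen with earlier results of these data known. Exon lengths came from GENCODE M21 and promoters from RefSeq. The fits were tested on simulated data.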

Additional observations from a re-analysis of the deposited data

How the results depend on the processing

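The count of members called stayed at 0 under all 14 alternatives except DESeq2, which called 4. Over all genes the 64 calls became 282 with DESeq2, 36 with Y-linked expression as a covariate, 33 in libraries with Y-linked transcripts only and 23 to 63 with 1 library left out (leaving out control 1 gave 41, control 3 gave 25, mutant 2 gave 23 and mutant 3 gave 26). Among the other matrix genes the 0 calls became 6 with DESeq2. With the replicate number as a block there were 119 calls over all genes, 4 among the other matrix genes and 0 among members. The number is not a stated pairing: correlations of same-numbered deviations were 0.0319, 0.109 and 0.131, although every library correlated best with its own number. The alternatives fitted all genes. Refitted fold changes were examined for the 25 members named by rule and tested, not for the other 12, among them Adamts12, Mmp25 and Adamtsl5. Of the 25, 5 changed sign, and the cause was not tested. With the covariate the log2 fold change was 0.14 for Adamtsl2, 0.0215 for Mmp15, 0.22 for Adamts10 and 0.0358 for Mmp23, and with Y-linked libraries only 0.12, 0.00607, 0.20 and 0.0204. With 1 library left out it ran from -0.29 to 0.00739 for Adamtsl2, -0.14 to 0.0157 for Mmp2, -0.15 to 0.0101 for Mmp15, -0.13 to 0.15 for Adamts10 and -0.57 to 0.28 for Mmp23. Low counts limit Mmp9, Mmp13, Timp4, Adamtsl3 and Adamts16.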
